A study of Mus musculus with 17 samples.

Results

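Triacylglycerol synthesis and lipid droplet genes were described in cells from mouse lung tumors with and without a deletable Gpx4 allele. The set was a fixed list of 10 genes (Gpam, Dgat1, Dgat2, Plin2, Plin3, Pnpla2, Abhd5, Lipe, G0s2 and Hilpda), matched by gene symbol. All 10 had a row in each of the 3 tables, among 16410 genes in the tumor cell table, 13545 in the table of TRMs and 13407 in the table of MDMs.

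KL mice carried KrasLSL-G12D/+ and Lkb1fl/fl, Cre-dependent alleles that together start lung tumors, and KLG4 mice carried the same alleles and Gpx4m/m. All groups received Ad-Cre, an adenovirus that delivers Cre recombinase, through the nose and then tamoxifen, and cells were taken from the tumor-bearing lungs 10 weeks after Ad-Cre. The Gpx4m/m allele carries rox sites around Gpx4 exons and a DreERT2 recombinase under a CAG promoter behind a STOP cassette that Cre removes. The deletion therefore needs Cre and then tamoxifen, in whichever cell the virus entered, and KL controls shared the tumor alleles and both treatments without it. The mice were young adults when infected. Tumor cells were sorted as EpCAM+ cells without CD45 or CD31, and TRMs and MDMs are the tissue-resident and monocyte-derived macrophages of the study. Each population was profiled by bulk RNA sequencing in duplicate libraries of KL and of KLG4, so 12 libraries in all, and 5 further samples were not analysed here. The study describes separate mice behind the tumor cell profiles, but no label ties a library to a mouse, so p-values measure the spread between these libraries, which may be technical.

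Triacylglycerol is built by adding fatty acids to glycerol 3-phosphate. GPAM, an outer mitochondrial membrane acyltransferase, adds the first one, and DGAT1 and DGAT2 add the last one to diacylglycerol. The product is stored in lipid droplets coated by perilipins, of which PLIN2 and PLIN3 are found in most cells. PNPLA2, also called ATGL, begins lipolysis with ABHD5 as its coactivator, and LIPE, the hormone-sensitive lipase, acts next on diacylglycerol. G0S2 and HILPDA bind PNPLA2 and inhibit it. Alveolar macrophages are known for handling surfactant lipid and neutrophils for abundant G0s2 transcript.

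The sequences just upstream of the annotated start are shown for Plin2, the coat gene that led the list in TRMs, and for G0s2 and Hilpda, the inhibitors of PNPLA2 whose values went in different directions in tumor cells. They are RefSeq promoter sequences of build GRCm38.p6, written 5′ to 3′ on the strand of the gene and cut where the annotated exon begins. Capitals mark matches, on either strand, to 1 of 6 motifs. Of the 10 members, 8 matched an entry of the promoter table. Dgat1 and Dgat2 are named only.
Plin2, chr4:86670061-86670309, minus strand: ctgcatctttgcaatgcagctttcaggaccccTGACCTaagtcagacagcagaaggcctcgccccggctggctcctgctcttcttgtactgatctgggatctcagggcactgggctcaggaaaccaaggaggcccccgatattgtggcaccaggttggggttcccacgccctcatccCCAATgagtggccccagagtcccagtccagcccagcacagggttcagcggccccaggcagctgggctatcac
G0s2, chr1:193273218-193273438, minus strand: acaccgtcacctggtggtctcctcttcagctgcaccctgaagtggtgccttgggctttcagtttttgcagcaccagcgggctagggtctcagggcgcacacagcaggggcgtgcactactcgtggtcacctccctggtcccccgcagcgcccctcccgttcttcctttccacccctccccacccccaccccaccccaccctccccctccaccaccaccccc
Hilpda, chr6:29272238-29272487, plus strand: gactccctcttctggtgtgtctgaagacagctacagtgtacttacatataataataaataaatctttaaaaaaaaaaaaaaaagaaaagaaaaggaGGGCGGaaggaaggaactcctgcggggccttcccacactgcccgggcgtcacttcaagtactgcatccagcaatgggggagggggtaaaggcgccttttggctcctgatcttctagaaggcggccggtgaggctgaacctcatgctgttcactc

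Over the 250 bases before the RefSeq start, the Plin2 window held 1 AGGTCA (the half-site of nuclear receptors such as PPARs) and 1 CCAAT. The Hilpda window held 1 GGGCGG, the GC box. The G0s2 window held 1 GGGCGG, which lay in the bases next to the start that are not shown, and the stretch shown held no match. ACGTG, the core of hypoxia response elements, was found in none of these 3 windows and was at position -43 from a second, downstream RefSeq start of Hilpda. CACGTG (the E-box, which contains ACGTG) and TATAAA had no match in the 3 windows. Among 32851 mouse promoter windows of the same length, 16.6% held ACGTG, 6.02% CACGTG, 32.7% GGGCGG, 33.8% CCAAT, 12.4% TATAAA and 14.0% AGGTCA. These matches are descriptions of letters and not of binding.

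Values are RPKM, counts scaled to the exon length of the gene and to the counted reads of the library, so levels of different genes can be set side by side per length. The counted reads were between 9140750 and 36616982 per library. Gpx4, the targeted gene, was at 56.4 and 61.9 RPKM in the KLG4 pair against 95.0 and 76.8 RPKM in KL tumor cells, where it fell by 0.53 on the log2 scale (adjusted p = 0.036, limma). In TRMs Gpx4 was at 53.8 and 57.0 RPKM in the KLG4 pair and 89.8 and 88.2 RPKM in the KL pair (adjusted p = 0.070), and the MDM libraries gave 93.6 and 97.7 RPKM in the KLG4 pair and 44.9 and 71.3 RPKM in the KL pair (adjusted p = 0.68). Counting covered the whole gene, including exons that stay after recombination. The 2 KLG4 tumor cell libraries were far closer to each other than other pairs were, with a chi-square of 3.28 per gene against 28.9 to 131.5 in the other 5 pairs, which makes the spread in that table small. Sex-linked transcripts differed in macrophages. Xist was at 18.3 and 20.2 RPKM in KLG4 TRMs and at 0.257 and 0.501 RPKM in KL TRMs, and in MDMs the second KL library was at 0.839 RPKM against 19.4 to 21.8 RPKM in the other 3. In each tumor cell library Xist, at 4.17 to 6.18 RPKM, stood beside the Y-linked gene Eif2s3y, at 7.27 to 9.26 RPKM.

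The labels were set against marker genes. The tumor cell libraries held epithelial transcripts, but in KLG4 the summed level of 7 epithelial genes was 3592 and 3624 RPKM against 9193 and 7583 RPKM in the KL pair, and all 7 were lower. All 5 leukocyte genes were higher in KLG4 tumor cells, with sums of 113.5 and 116.3 RPKM against 11.9 and 13.3 RPKM. So were all 6 neutrophil genes measured, with sums of 2258 and 2161 RPKM against 178.8 and 271.8 RPKM, all 7 alveolar macrophage genes, with 402.4 and 409.4 RPKM against 37.2 and 61.6 RPKM, and all 6 fibroblast genes, with 360.4 and 358.3 RPKM against 10.6 and 15.7 RPKM. All 6 monocyte-derived macrophage genes measured were also higher in KLG4 tumor cells, with sums of 75.1 and 70.8 RPKM against 5.06 and 6.68 RPKM. The 4 T cell genes tested were all called higher there, as were 2 of 4 endothelial and 2 of 4 plasma cell genes. The plasma cell list also held 1 gene called lower. TRM libraries carried the alveolar macrophage genes at sums of 8388 to 13040 RPKM. Libraries labelled MDMs went partly against their label. The 7 neutrophil genes summed to 10654 to 23314 RPKM there and the 7 monocyte-derived macrophage genes to 52.8 to 286.0 RPKM, with the highest macrophage sum and the lowest neutrophil sum in the second KL library. The adipocyte genes of the marker lists were not analysed here. In bulk samples, fewer cells of a type and less RNA per cell cannot be told apart.

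In tumor cells, the enzymes of the last step of triacylglycerol synthesis and an inhibitor of lipolysis were higher in KLG4 than in KL. Dgat1, Dgat2 and G0s2 rose, at 11.4-fold, 3.24-fold and 10.1-fold on the log2(RPKM + 0.1) scale. No member fell past the threshold, an adjusted p under 0.05. Of the 10 members tested, 3 were called and all 3 were higher, while 40.3% of all 13770 genes tested were called, 20.6% higher and 19.6% lower. That balance moved with the scaling, from 2843 genes higher and 2700 lower to 2585 and 4130 under quantile scaling and 3061 and 1948 when scaled to reads outside mitochondrial genes, and it was 1592 and 398 or 1552 and 375 without the first or the second KLG4 library. The groups did not overlap for any of the 10 members, 5 above and 5 below in KLG4, in a table where 74.7% of genes did not overlap. The median log2 fold change of the members was -0.02 and that of all genes tested was -0.09. Depth and mitochondrial reads moved with genotype in this table. KLG4 libraries held 17646493 and 15920195 counted reads against 36616982 and 30244654 in KL, and mitochondrial genes took 14.8% and 14.7% of them against 7.39% and 8.27%. When scaled to the other reads, Dgat1, Dgat2 and G0s2 were again called higher.

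**Figure D1:**
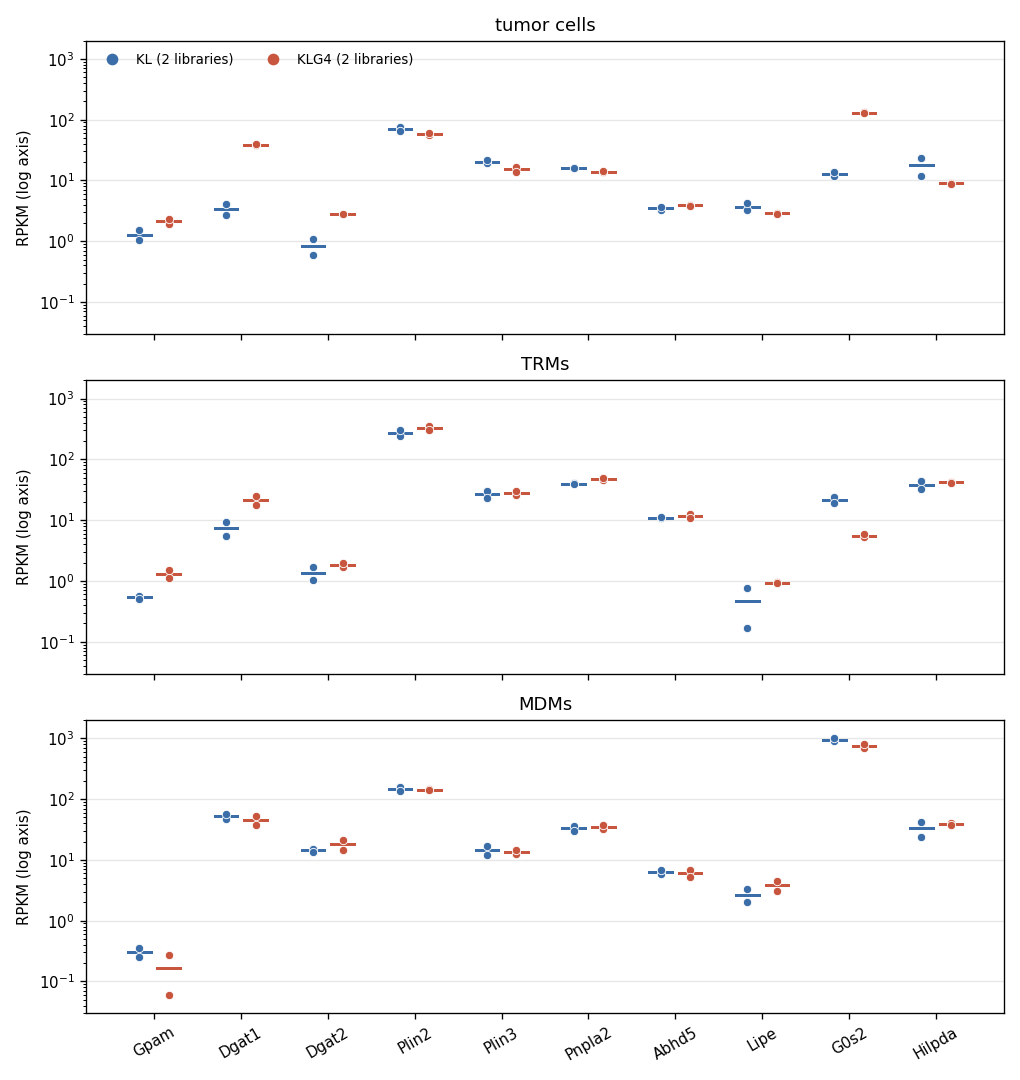
RPKM (log axis) of the 10 members in each library of tumor cells, TRMs and MDMs, with KL in blue, KLG4 in red and bars at the mean of 2 libraries. Dgat1 and G0s2 stand apart by genotype in tumor cells, at 38.3 and 39.6 RPKM and at 132.6 and 127.4 RPKM in the KLG4 pair, and G0s2 lies the other way round in TRMs.

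Dgat1, on chromosome 15 (chr15:76502015-76511951, GRCm38, minus strand), encodes the acyltransferase of the endoplasmic reticulum that completes triacylglycerol. It was at 38.3 and 39.6 RPKM in KLG4 tumor cells and at 2.70 and 4.12 RPKM in KL tumor cells. Both KLG4 libraries lay far above both KL libraries, and the means were 39.0 ± 0.874 and 3.41 ± 1.01 RPKM (SD, n = 2 each). The log2 fold change was 3.50 (SE 0.221, adjusted p = 4.0e-04, limma), and it kept its direction and its call in all 14 alternatives, with adjusted p between 2.3e-05 and 0.014.

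Dgat2 (chr7:99153658-99182719, minus strand) encodes a structurally unrelated enzyme for the same reaction, found on the endoplasmic reticulum and at lipid droplets. Its level was 2.81 RPKM in both KLG4 tumor cell libraries and 1.07 and 0.590 RPKM in the KL ones. The groups did not overlap, at a low level that rested on 153 and 138 counted reads in KLG4 and 121 and 55 in KL. The log2 fold change of Dgat2 was 1.70 (SE 0.304, adjusted p = 0.0094). The call ended when either KLG4 library was left out, with adjusted p of 0.085 and 0.087, at an unmoved log2 fold change of 1.70. Over 13 alternatives the adjusted p ran from 0.0018 to 0.087 and the log2 fold change from 1.07, with a pseudocount of 1, to 2.08.

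Gpam (chr19:55069734-55099451, minus strand) was at 1.91 and 2.34 RPKM in KLG4 tumor cells and 1.04 and 1.52 RPKM in the KL pair. Both KLG4 values were the higher ones, and the difference did not pass the test (log2 fold change 0.71, SE 0.261, adjusted p = 0.083). It passed with limma-voom (adjusted p = 0.043) and without the second KL library (0.025), in a range over 13 alternatives from 0.025 to 0.37. Within a library, the level of Gpam was 0.0498 and 0.0592 of that of Dgat1 in KLG4 and 0.385 and 0.368 in KL. The ratio of Dgat2 to Dgat1 was likewise lower in KLG4, at 0.0734 and 0.0711 against 0.397 and 0.143. Dgat1 therefore stood further above the other acyltransferases of the list in KLG4 libraries, and such a ratio does not move with a scaling by 1 factor per library. The ratios are given as values and no test of them was run.

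G0s2 (chr1:193272161-193273217, minus strand), which holds back PNPLA2, was at 132.6 and 127.4 RPKM in KLG4 tumor cells and at 12.04 and 13.6 RPKM in the KL pair. The means were 130.01 ± 3.65 and 12.8 ± 1.10 RPKM (SD, n = 2 each). The log2 fold change was 3.33 (SE 0.121, adjusted p = 1.2e-04), and it was called in all 14 alternatives, with adjusted p between 1.4e-05 and 0.0095. Within a library, G0s2 was 9.56 and 8.997 times the level of Pnpla2 in the KLG4 pair, compared with 0.736 and 0.845 times in the KL pair, so the level of the inhibitor was above that of its target in KLG4 tumor cells and below it in KL tumor cells.

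Transcripts of other cell types moved with these 3 calls. S100a9, a calcium-binding protein abundant in neutrophils, was at 1983 and 1886 RPKM in KLG4 tumor cells and at 165.5 and 247.7 RPKM in the KL pair, a log2 fold change of 3.25 (SE 0.210). Ptprc, which encodes CD45, the antigen that the sort was meant to exclude, was at 26.7 and 27.4 RPKM against 0.834 and 2.06 RPKM. The ratio of G0s2 to S100a9 within a library was 0.0669 and 0.0676 in KLG4 and 0.0727 and 0.0549 in KL, so the groups overlapped. The ratio of Dgat1 to S100a9 was 0.0193 and 0.0210 in KLG4 and 0.0163 and 0.0167 in KL, which did not overlap. Relative to Ptprc, Dgat1 was at 1.43 and 1.45 in KLG4 against 3.24 and 2.00 in KL, and G0s2 was at 4.96 and 4.66 against 14.4 and 6.59, both without overlap. The ratios to S100a9 and Ptprc were chosen after the values were seen, and the part of other cell types in the result was not tested.

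The other inhibitor, Hilpda (chr6:29272488-29275446, plus strand), a hypoxia-inducible protein, did not move with G0s2. It was at 9.20 and 8.71 RPKM in KLG4 tumor cells and at 23.7 and 11.9 RPKM in the KL pair. Both KLG4 libraries were below both KL libraries, and the KL libraries were further from each other than the second of them was from KLG4. The log2 fold change was -0.90 (SE 0.327, adjusted p = 0.078). Without the first KL library it was -0.41 (adjusted p = 0.035) and without the second -1.40 (adjusted p = 6.2e-04), in a range over 14 alternatives from 6.2e-04 to 0.30.

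Droplet coat genes were abundant in tumor cells of both genotypes and did not pass the test with all 4 libraries. Plin2 (chr4:86648386-86670060, minus strand) was at 55.3 and 60.6 RPKM in the KLG4 pair and at 75.8 and 64.0 RPKM in the KL pair, a log2 difference of -0.27 (SE 0.135, adjusted p = 0.17). Plin3 (chr17:56278962-56290511, minus strand) was at 16.5 and 14.1 RPKM in the KLG4 pair and at 19.5 and 21.5 RPKM in the KL pair (log2 -0.43, SE 0.143, adjusted p = 0.064). Without the second KL library Plin2 passed (adjusted p = 0.016), and Plin3 passed without the first KL library (0.031) and under quantile scaling (0.049). Both coat genes thus had KLG4 values below the KL values, at small differences, and the ratio of Plin2 to Plin3 overlapped between genotypes at 2.98 to 4.31.

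The lipases and the coactivator also did not pass the test with all 4 libraries. Pnpla2 (chr7:141455198-141460743, plus strand) was at 13.9 and 14.2 RPKM in the KLG4 pair and 16.3 and 16.1 RPKM in the KL pair (log2 -0.21, SE 0.121, adjusted p = 0.22). Abhd5 (chr9:122351608-122381524, plus strand) was at 3.95 and 3.83 RPKM in the KLG4 pair and 3.24 and 3.70 RPKM in the KL pair (log2 0.16, SE 0.171, adjusted p = 0.48), and Lipe (chr7:25379527-25398710, minus strand) was at 2.93 and 2.83 RPKM in the KLG4 pair and 3.22 and 4.20 RPKM in the KL pair (log2 -0.34, SE 0.200, adjusted p = 0.22). Lipe was called lower under quantile scaling (log2 -0.55, adjusted p = 0.040) and without the first KL library (-0.53, 0.048). Antisense transcripts share 16.0% of the exon length of Abhd5 (A730085K08Rik) and 15.6% of that of Lipe (4732471J01Rik). The counting ignored strand, so reads of these pairs cannot be told apart, while no other member shares exon bases with another annotated gene. The ratio of Abhd5 to Pnpla2 was a little higher in KLG4, at 0.285 and 0.270 against 0.198 and 0.230.

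**Figure D2:**
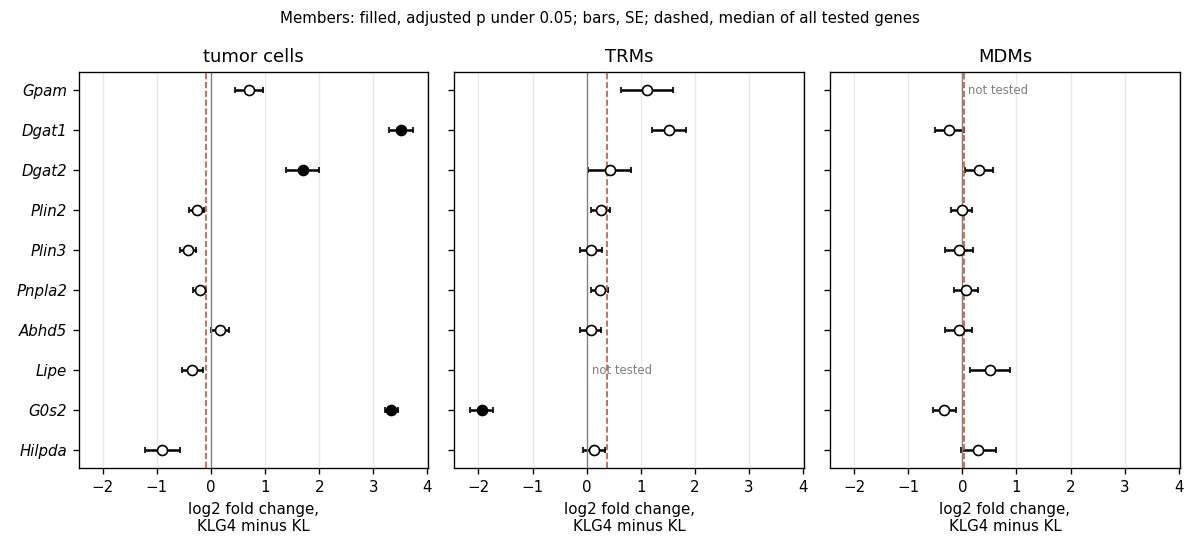
Log2 fold change (KLG4 minus KL, on log2(RPKM + 0.1)) of each member with its standard error in tumor cells, TRMs and MDMs. Filled points have an adjusted p under 0.05 and the dashed line is the median of all genes tested. The filled points are Dgat1, Dgat2 and G0s2 in tumor cells, at 3.50, 1.70 and 3.33, and G0s2 in TRMs, at -1.94.

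In TRMs, G0s2 was lower in KLG4, the opposite of its direction in tumor cells, and no other member passed the test. Sex-linked transcripts followed genotype in TRMs, with Eif2s3y at 0 reads in both KLG4 libraries and at 12.3 and 14.7 RPKM in KL and Xist the other way round, so genotype and sex cannot be told apart in any TRM difference given here. Of 9 members tested, 1 was called, against 1.8% of 10990 genes (1.36% higher and 0.437% lower). The 150 genes higher and 48 lower became 11 and 25 under TMM scaling, 23 and 37 under quantile scaling and 8 and 23 when scaled to reads outside mitochondrial genes, so that more genes were called lower than higher under these 3. Lipe did not reach 1 RPKM in 2 libraries and was left out of the test. The groups did not overlap for 5 of the 9 members, where 62.7% of all genes did not. The median log2 fold change was 0.24 over the members and 0.38 over all genes tested. The share of reads from mitochondrial genes (nuclear copies included) was 31.5% and 22.3% in KL TRMs but 2.96% and 5.78% in KLG4 TRMs, and after TMM scaling, quantile scaling or scaling to the other reads the median of all genes lay between -0.0098 and 0.017. Small positive differences in TRMs are therefore to be read against that shift.

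G0s2 was at 5.32 and 5.86 RPKM in KLG4 TRMs and at 24.2 and 19.3 RPKM in KL TRMs. The groups were well apart, and the means were 5.59 ± 0.384 and 21.8 ± 3.45 RPKM (SD, n = 2 each). G0s2 fell by 1.94 on the log2 scale (SE 0.214, adjusted p = 0.035). Without the variance trend the adjusted p was 0.079, and over 14 alternatives it ran from 0.0048 to 0.079 with fold changes from -2.35 to -1.77 on the log2 scale. Relative to Pnpla2, G0s2 was at 0.118 in both KLG4 libraries and 0.601 and 0.485 in KL. S100a9 was at 93.9 and 61.9 RPKM in KLG4 TRMs and 190.6 and 116.3 RPKM in KL TRMs. The summed level of 5 neutrophil genes was 111.4 and 76.1 RPKM against 224.4 and 135.0 RPKM, none of them called. Most of each sum was S100a9. S100a8, S100a9 and Csf3r had lower values in KLG4, while Retnlg and Cxcr2 overlapped, with Cxcr2 at a log2 difference of 0.025. Relative to S100a9, G0s2 was at 0.0566 and 0.0946 in KLG4 and 0.127 and 0.166 in KL. The part of neutrophil transcripts in the TRM difference was not tested.

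**Figure D3:**
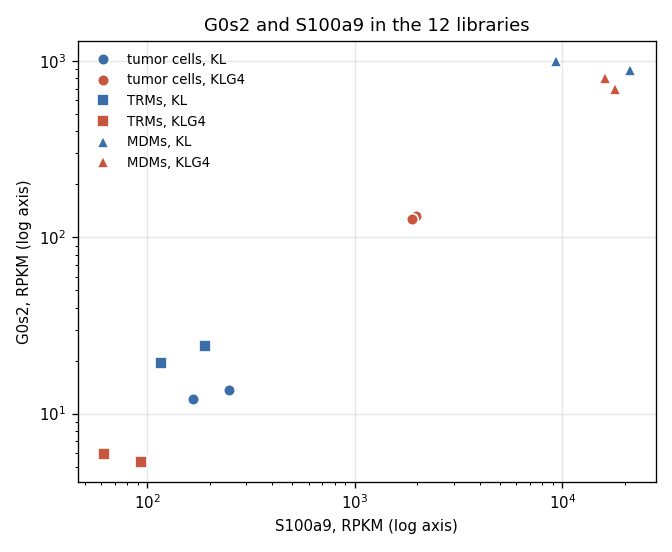
G0s2 against S100a9 in RPKM (both axes log) in the 12 libraries, with the population given by the symbol and the genotype by the color. The ratio of G0s2 to S100a9 lay between 0.039 and 0.166 in all 12 libraries, while G0s2 itself ran from 5.32 to 1009 RPKM.

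Dgat1 was at 24.7 and 17.5 RPKM in KLG4 TRMs and at 5.53 and 9.35 RPKM in KL TRMs. The KLG4 libraries were above both KL libraries, as in tumor cells. The log2 fold change of 1.52 (SE 0.320) did not pass the adjusted threshold (adjusted p = 0.065), and it passed with a filter at a mean of 5 RPKM (0.040), with limma-voom on recovered reads (0.030) and without the second KL library (0.020), in a range from 0.020 to 0.21. The summed neutrophil genes were lower in KLG4 TRMs, at the values given beside G0s2, with Retnlg and Cxcr2 overlapping. Epithelial genes were also lower in KLG4 TRMs in the sum of 6 genes, at 67.8 and 127.7 RPKM against 210.6 and 236.1 RPKM, with none of the 6 called, Epcam overlapping and Cdh1 at higher values in KLG4. The sum of 7 alveolar macrophage genes was higher, at 13040 and 12126 RPKM against 8478 and 8388 RPKM, with 4 of 7 called, Siglecf overlapping and Ear2 at lower values in KLG4. The part of these in the Dgat1 difference was not tested.

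The remaining acyltransferases were low in TRMs. Gpam was at 1.11 and 1.51 RPKM in the KLG4 pair and 0.574 and 0.514 RPKM in the KL pair (log2 1.12, SE 0.487, adjusted p = 0.20), which rested on 18 to 114 reads. Over 13 alternatives its log2 fold change ran from 0.49, under quantile scaling, to 1.32. Dgat2 lay at 1.67 and 1.99 RPKM in the KLG4 pair and 1.04 and 1.70 RPKM in the KL pair, and the groups overlapped (adjusted p = 0.51). The ratio of Dgat2 to Dgat1 was lower in KLG4 TRMs, at 0.0676 and 0.114 against 0.188 and 0.182.

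Plin2 was the most abundant member in TRMs in every library, at 349.9 and 305.4 RPKM in the KLG4 pair and 246.1 and 301.1 RPKM in the KL pair. The values of KLG4 were above those of KL by a margin smaller than the spread within KL (log2 0.26, SE 0.175, adjusted p = 0.35), and the sign turned under TMM scaling. Pnpla2 was at 45.1 and 49.7 RPKM in the KLG4 pair and 40.3 and 39.8 RPKM in the KL pair (log2 0.24, SE 0.161, adjusted p = 0.36), also with a sign that turned under TMM scaling. Hilpda was at 43.1 and 40.6 RPKM in the KLG4 pair and 43.7 and 33.0 RPKM in the KL pair, and the groups overlapped. Plin3, at 23.6 to 30.1 RPKM, and Abhd5, at 10.8 to 12.6 RPKM, overlapped as well. Lipe had the lowest mean over the 4 libraries, although Gpam was lower in the second KL library, and was at 0.945 and 0.910 RPKM in the KLG4 pair and 0.170 and 0.781 RPKM in the KL pair, from 149, 63, 10 and 42 reads.

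In MDMs no member passed the test, as was true of all genes. None of 9 members tested was called (limma), and 0.0% of 10475 genes were, with 706 genes and 0 of the members at an unadjusted p under 0.05. Limma-voom on recovered reads also called 0 genes. The groups did not overlap for 1 of 9 members, G0s2, against 44.5% of all genes. The second KL library stood apart in this table. Without the first KL library, which leaves the second as the only KL library, the log2 fold change of Hilpda was 0.70. Xist was at 0.839 RPKM in that second library and at 19.4 RPKM in both KLG4 libraries, so genotype and sex cannot be told apart in that fit.

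G0s2 was the most abundant member of MDMs in every library, at 698.5 and 808.7 RPKM in the KLG4 pair and 887.7 and 1009 RPKM in the KL pair. The KLG4 libraries were the lower ones by a small margin (log2 -0.33, SE 0.206, adjusted p = 0.68). Relative to Pnpla2, G0s2 was at 21.8 in both KLG4 libraries and 24.5 and 33.7 in KL. S100a9 was at 16080 to 21106 RPKM in 3 MDM libraries and at 9379 RPKM in the second KL library, where G0s2 was highest.

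Both acyltransferases of the last step had their highest group means in MDMs, levels set side by side across tables and not tested. Dgat1 was at 52.5 and 37.0 RPKM in the KLG4 pair and 47.0 and 57.7 RPKM in the KL pair (log2 -0.24, SE 0.262, adjusted p = 0.76). Dgat2 lay at 14.7 and 21.3 RPKM in the KLG4 pair and 15.1 and 13.5 RPKM in the KL pair (log2 0.31, SE 0.261, adjusted p = 0.71), above every library of the other populations. Gpam was near the detection limit, at 0.0601 and 0.271 RPKM in the KLG4 pair and 0.253 and 0.352 RPKM in the KL pair, from 6, 27, 18 and 14 reads, and was not tested.

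Coat and lipolysis genes of MDMs overlapped between genotypes throughout. Plin2 ranged from 133.8 to 157.0 RPKM, Plin3 from 12.003 to 16.8 RPKM, Pnpla2 from 29.9 to 37.1 RPKM and Abhd5 from 5.22 to 6.79 RPKM. Lipe was at 3.12 and 4.50 RPKM in the KLG4 pair and 3.31 and 2.03 RPKM in the KL pair. Hilpda was at 40.0 and 38.0 RPKM in the KLG4 pair and at 42.2 and 24.0 RPKM in the KL pair, with the low value in the second KL library.

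The order of levels differed between populations, which are set side by side here without a test because each table was made separately. In tumor cells, over 4 libraries of both genotypes, Plin2 (55.3 to 75.8 RPKM) was above Dgat1, Plin3, Pnpla2 and Hilpda, whose ranges overlapped, and G0s2 was above Plin2 in the KLG4 libraries and below it in the KL ones. Abhd5, Lipe, Dgat2 and Gpam were at 0.590 to 4.20 RPKM, and in both KL libraries Dgat1 was below Lipe. In TRMs Plin2 was above all others without overlap, then came Pnpla2 and Hilpda, which overlapped, Plin3, and at a lower level Dgat1, G0s2 and Abhd5, which overlapped. Dgat2, Gpam and Lipe were the lowest in TRMs. In MDMs G0s2 was above Plin2 without overlap, Dgat1, Hilpda and Pnpla2 overlapped below them, and Lipe and Gpam were at the bottom.

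**Figure D4:**
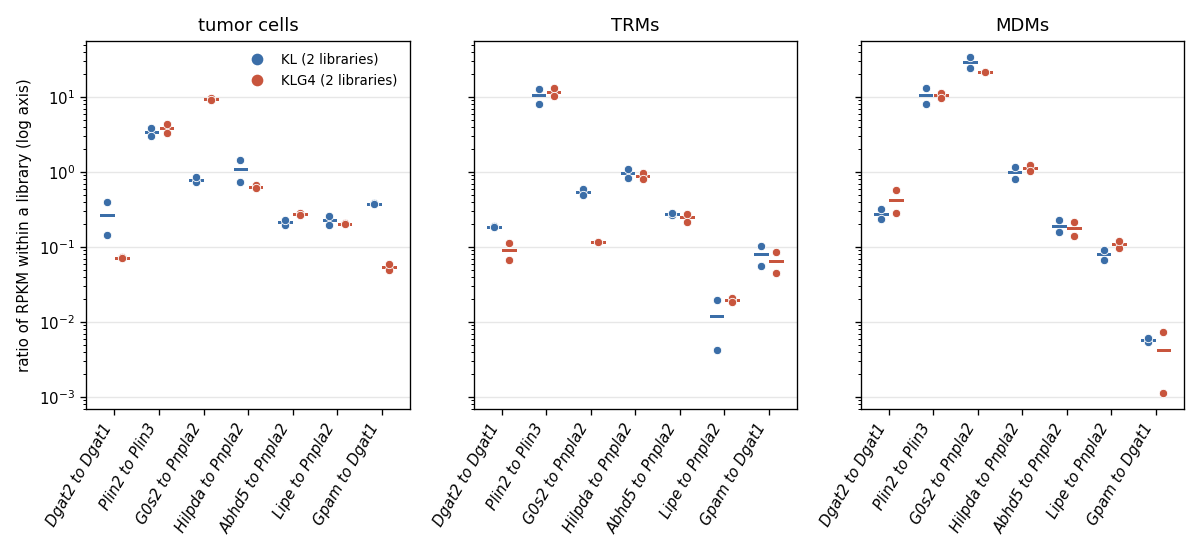
Ratio of the RPKM of 2 members within a library (log axis) for 7 pairs in tumor cells, TRMs and MDMs, with KL in blue, KLG4 in red and bars at the mean of 2 libraries. The ratio of G0s2 to Pnpla2 is higher in KLG4 tumor cells, at 9.56 and 8.997, and lower in KLG4 TRMs, at 0.118 in both libraries.

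Across the 12 libraries, members were correlated in level, and the points share population and genotype, which were not separated. Pearson correlations of log2(RPKM + 0.1) were 0.96 between Plin2 and Pnpla2, 0.96 between Plin2 and Abhd5 and 0.92 between Pnpla2 and Hilpda, and 0.90 between G0s2 and Dgat2. The most negative values were those of Plin3 with G0s2 (-0.86), Abhd5 with Lipe (-0.80), Plin3 with Lipe (-0.78), Dgat2 with Plin3 (-0.74) and Gpam with Dgat2 (-0.72). Among 9253 genes with a mean of at least 1 RPKM in the 3 tables, those close to G0s2 included Stfa2l1 (0.988) and S100a8 (0.984), which encodes the partner of S100A9. The closest to Dgat1 were Mybpc3 (0.977), Gla (0.974) and Fgl2 (0.972), and those closest to Dgat2 were Jdp2 (0.987), Zcchc6 (0.984) and Arih2 (0.982). Pnpla2 was closest to Fabp4 (0.978), a fatty acid binding protein, and to Coro1c (0.978) and Tmem234 (0.973).

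For the other members the closest genes were Slc38a6, Abracl and Ctsd for Plin2 (0.977 to 0.982), Lactb, Utp6 and Cep55 for Plin3 (0.955 to 0.967), and Trim29, Tctn1 and Unc119 for Abhd5 (0.981 to 0.983). They were Zfp335, Rprd1a and Polg for Lipe (0.978 to 0.9903), Dyrk2, Pdia5 and Dtx3 for Gpam (0.961 to 0.981), and Amdhd2, Coro1c and Capza2 for Hilpda (0.938 to 0.940). The libraries of a population share their sort and their table, so these correlations are given as descriptions.

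The rest of the pathway was read from a list of 39 other genes. In tumor cells 31 had a row and 29 were tested, and 10 rose and 4 fell, at a median log2 fold change of 0.32 where that of all genes tested was -0.09. Of all genes tested in tumor cells 40.3% were called, 20.6% higher and 19.6% lower. In TRMs 0 of 27 tested and in MDMs 0 of 20 tested passed the test (limma), with 8 and 0 at an unadjusted p under 0.05, where 3111 of 10990 genes in TRMs and 706 of 10475 in MDMs were under it. Limma-voom on recovered reads called 0 genes of the list in TRMs and in MDMs and 13 in tumor cells, where Gpat4 and Cidea were not among them. The list was read together with the members because these genes make the substrates of the DGAT enzymes or act on the same droplet.

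Upstream of the DGAT enzymes, 3 of 8 genes of glycerol 3-phosphate supply and acylation were called in tumor cells, near the 40.3% of all genes. Agpat4, a lysophosphatidate acyltransferase, rose from 2.30 and 2.28 RPKM in the KL pair to 7.51 and 6.63 RPKM in the KLG4 pair (log2 1.58, adjusted p = 0.0016). Gpat4, the most abundant of the step, fell from 14.1 and 12.1 RPKM to 9.07 and 9.46 RPKM (log2 -0.49, adjusted p = 0.044), and Agpat2, named after its values were seen, fell with log2 -0.95 (adjusted p = 0.040). Of 6 phosphatidate phosphatase genes, which make diacylglycerol, 3 rose and 1 fell, beside 20.6% higher and 19.6% lower among all genes. Plpp3 was at 23.4 and 23.7 RPKM in the KLG4 pair and 3.66 and 3.46 RPKM in the KL pair (log2 2.69, adjusted p = 2.3e-04), and Lpin1 had a log2 fold change of 1.41 (adjusted p = 0.011).

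Among droplet growth and lipolysis genes, Cidec, which promotes fusion of droplets, was at 2.11 and 2.23 RPKM in KLG4 tumor cells and 0.235 and 0.303 RPKM in the KL pair (log2 2.63, adjusted p = 0.0010). Its relative Cidea, the most abundant of that step, was lower, at 5.45 and 6.53 RPKM against 9.76 and 8.95 RPKM (log2 -0.64, adjusted p = 0.028). Mgll, the monoacylglycerol lipase that ends lipolysis, and Lipa, the acid lipase of lysosomes, both rose, with log2 fold changes of 1.66 and 1.57 (adjusted p = 0.0050 and 0.0014). The leukocyte, neutrophil, macrophage and fibroblast markers given for tumor cells rose as Cidec, Mgll and Lipa did, while Cidea fell as the epithelial markers did. The part of other cell types was not tested.

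**Figure D5:**
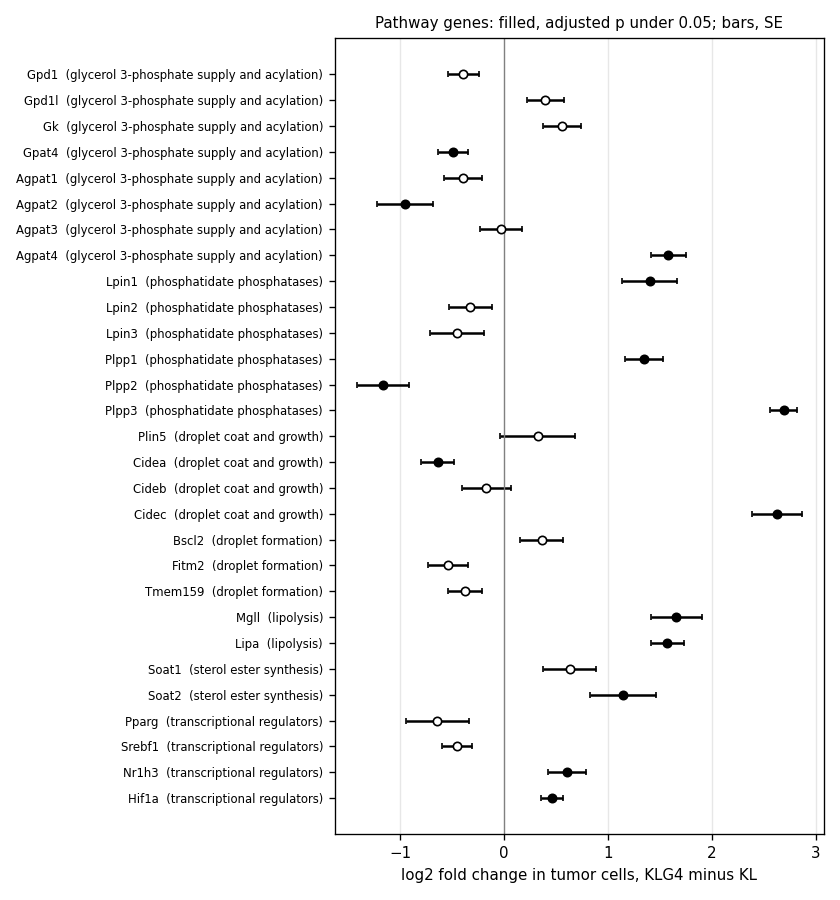
Log2 fold change (KLG4 minus KL) with its standard error for the 29 other pathway genes tested in tumor cells, grouped by step, with filled points for an adjusted p under 0.05. Of the filled points 10 lie above 0 and 4 below, from Plpp3 at 2.69 to Plpp2 at -1.16.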

How the data were processed

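Libraries were poly(A) RNA of sorted cells, read on both ends. According to the submitters' processing notes and the study's methods, the authors trimmed reads with Trim Galore (0.6.4), aligned them to GRCm38 with HISAT2 (2.0.5) and counted them per gene without strand with featureCounts (2.0.0). The authors deposited RPKM values in 1 table per population, with no factor between libraries; their fold changes and p-values were not used. The deposited RPKM times gene length gave whole reads (tolerance 0.05) for 100.0% of low values, from which depth was recovered. These totals may count both mates of a pair.

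Each table was tested alone with limma 3.58.1 (R 4.3.3; Python 3.11.15) on log2(RPKM + 0.1), with a variance trend, for genes of at least 1 RPKM in 2 of 4 libraries. Tests were two-sided, with Benjamini-Hochberg adjustment over the table. The scale understates changes of low genes. The scripts were tested on simulated data. Named genes were the members, Gpx4, up to 6 called pathway genes per table by size, the most abundant gene of a step, and for each member the 3 most correlated genes, of which 1 is not reported here. The members and lists were chosen with earlier results of these data known. Alternatives covered the pseudocount, filter, scaling, trend, limma-voom on recovered reads, a replicate block and each library left out. Gene positions are those of the deposited tumor cell table, and exon overlaps were taken from GENCODE vM21.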

Additional observations from a re-analysis of the deposited data

Results flagged for a closer look

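Of 30 pairings of a member with 2 populations, 5 had both KLG4 libraries on 1 side of both KL libraries in the first population and on the other side in the second. Among all genes tested, the groups did not overlap for 74.7% in tumor cells, 62.7% in TRMs and 44.5% in MDMs. How many of all genes lay on opposite sides was not counted, so the 5 pairings have no background to be read against. The difference between the populations was not tested, since each table was made separately.

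G0s2 was the widest. Its log2 difference between KLG4 and KL was larger in tumor cells than in TRMs by 5.27 and larger than in MDMs by 3.67. For G0s2, KLG4 was above KL in tumor cells and below KL in TRMs and in the libraries labelled MDMs. In tumor cells the neutrophil gene S100a9 also rose, with a log2 fold change of 3.25, and its part was not tested. In TRMs genotype and sex cannot be told apart. Lipe differed between tumor cells, where KLG4 was lower, and TRMs, where KLG4 was higher, by -1.42, but 1 KL TRM library rested on 10 reads. Plin2 and Pnpla2 were lower in KLG4 tumor cells and higher in KLG4 TRMs, with differences between the populations of -0.53 and -0.45, and neither passed the test in a table. The TRM values of Plin2 and Pnpla2 turned negative under TMM scaling.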

How the results depend on the processing

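In tumor cells the calls of Dgat1 and G0s2 held in all 14 alternatives. The number of members called, 3, was 5 under quantile scaling, where Plin3 and Lipe were also lower and Abhd5 turned to -0.018, 4 with limma-voom, where Gpam was added, and 2 to 6 when a library was left out. The number of genes called, 5543, was 3284 with a filter at a mean of 5 RPKM, which tests fewer genes, and 1927 to 7372 when a library was left out.

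In TRMs 1 member was called, against 0 without the trend, 2 with the filter at a mean of 5 RPKM and 2 with limma-voom, and 1 to 2 with a library left out. The 198 genes called became 490 and 122 with pseudocounts of 1 and 0.01, 120 without the filter, 557 with the filter at a mean of 5 RPKM, 60 under quantile scaling, 36 under TMM scaling, 31 with reads outside mitochondrial genes, 12 without the trend and 776 with limma-voom, and 113 to 2382 with a library left out. Under quantile scaling, TMM scaling, reads outside mitochondrial genes and limma-voom in turn, the log2 values of Plin3 were -0.25, -0.29, -0.31 and -0.31, those of Pnpla2 -0.059, -0.14, -0.15 and -0.15, those of Abhd5 -0.31, -0.30, -0.31 and -0.28 and those of Hilpda -0.16, -0.24, -0.25 and -0.22, all reversed in sign. Plin2 turned to -0.11, -0.13 and -0.11 under the last 3, and Dgat2 to -0.023 under quantile scaling. With a library left out, Plin3 ran from -0.10 to 0.25, Abhd5 from -0.035 to 0.19 and Hilpda from -0.063 to 0.34.

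In MDMs 0 to 2682 genes and 0 to 1 members were called with a library left out. Plin2 turned to 0.021 under TMM scaling and 0.056 with limma-voom, and Plin3 to 0.012 with limma-voom. With a library left out, Dgat1 ran from -0.49 to 0.011, Plin2 from -0.13 to 0.10, Plin3 from -0.30 to 0.18, Pnpla2 from -0.068 to 0.20, Abhd5 from -0.26 to 0.12 and Hilpda from -0.11 to 0.70.

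Libraries of 1 replicate number did not deviate together within a table (r = 0.019, -0.060 and 0.054 in tumor cells, TRMs and MDMs). These correlations cannot show whether the numbers mark shared mice or batches, and pairing across populations was not examined. The replicate block gave 5388, 470 and 0 genes called, and 4, 2 and 0 members, Hilpda in tumor cells and Dgat1 in TRMs being added. Where no cause is named, the cause was not tested. With a library left out, the lone library of its group is assumed to vary like the others.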
